A study of Mus musculus with 6 samples.

Results

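The genes described here build the inflammasome and carry out pyroptosis, the lytic death of a macrophage that follows inflammasome activation. They were taken by name, as every probe set whose platform annotation gives 1 gene symbol and that symbol is Nlrp3, Pycard, Casp1, Casp4, Gsdmd, Aim2, Nlrc4, Nlrp1b, Nek7 or Txnip. The rule itself uses no measured value. It gave 13 of 45101 probe sets, for 8 of the 10 genes: 3 for Pycard, 3 for Nek7, 2 for Txnip and 1 each for Nlrp3, Casp1, Casp4, Gsdmd and Aim2. Nlrc4 and Nlrp1b are not analysed here.

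An inflammasome is a cytosolic complex that forms when a sensor protein meets a microbial product or a sign of damage. The sensor recruits the adaptor ASC, encoded by Pycard, and ASC gathers and activates caspase-1, which cuts the precursors of interleukin 1 beta and interleukin 18. Caspase-1, and in mice caspase-11, the product of Casp4, also cut gasdermin D, whose released part opens pores in the plasma membrane. In macrophages the complex usually needs a priming signal, which raises Nlrp3 and the cytokine precursors, before a second signal assembles it. Cholesterol crystals are among the signals that activate NLRP3, which ties this pathway to atherosclerosis.

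Macrophages were grown from the marrow of mice that lack vimentin and of their wild-type littermates, and each genotype was measured on 3 Affymetrix arrays, each labelled a biological replicate. Vimentin is an intermediate filament protein of macrophages, and the labels name no promoter or tissue that would limit its loss. Both genotypes had the C57BL/6 background, an age of 17 weeks and a chow diet, and their cultures were kept at normal oxygen in medium rich in glucose. Medium conditioned by the cell line CMG14-12 supplied macrophage colony-stimulating factor. No inflammasome activator and no priming agent is named in the labels for either genotype.

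The check of the labels was made at Vim and at macrophage genes. The 3 Vim probe sets read 6.23 to 8.60 log2 units on vimentin-deficient and 12.45 to 13.41 on wild-type arrays. Of the 9 vimentin-deficient values 3 lay below the filter value of 6.93, where differences can be compressed, so no fold is given. Vimentin-deficient replicate 1 read 1.23 to 1.77 log2 units above replicate 2 on these sets. All 8 macrophage markers lay above the filter on low values, led by the lysozyme gene Lyz2 and the lysosomal protein gene Cd68. Their mean log2 value was 11.97 to 12.36 on vimentin-deficient and 11.91 to 12.07 on wild-type arrays. This mean hides single markers that differed in either direction. Cd14 read 12.76, 12.59 and 13.16 on vimentin-deficient against 12.01, 12.12 and 12.12 on wild-type arrays, while Mertk had a log2 difference of -0.23. On vimentin-deficient replicate 3 Fcgr1 read 11.70 against 9.82 to 10.21 on the rest, and Itgam 9.60 against 10.30 to 10.62. Vimentin-deficient replicate 3 stood apart: it correlated at 0.975 to 0.979 with the other arrays over all probe sets, while the rest correlated at 0.992 to 0.998. Results on the named genes are therefore given with and without it. The 3 arrays per genotype limit the precision of every comparison.

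The upstream sequence of 3 of these genes is shown as background, and they were chosen after their values were seen. Txnip had the largest difference between the genotypes among the 8 genes, and Casp1 and Casp4 are neighbours on chromosome 9. No result below rests on these sequences. Casp1 ends 1567 bases before Casp4 starts, on the same strand, so the region upstream of Casp4 lies between them. Each run holds the 250 bases before the first listed start of the gene, on the plus strand of GRCm38.p6, from RefSeq. In Txnip, at chr3:96557707-96557956, capitals mark a carbohydrate response element, the motif through which glucose is known to induce this gene, and a FOXO motif. In Casp1, at chr9:5298267-5298516, they mark an E box, and in Casp4, at chr9:5308599-5308848, a pair of NF-kappaB motifs.
Txnip: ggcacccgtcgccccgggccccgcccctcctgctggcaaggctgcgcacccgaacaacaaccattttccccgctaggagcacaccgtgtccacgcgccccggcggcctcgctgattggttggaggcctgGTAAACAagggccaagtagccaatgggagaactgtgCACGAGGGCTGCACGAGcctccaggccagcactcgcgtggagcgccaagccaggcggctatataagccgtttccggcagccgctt
Casp1: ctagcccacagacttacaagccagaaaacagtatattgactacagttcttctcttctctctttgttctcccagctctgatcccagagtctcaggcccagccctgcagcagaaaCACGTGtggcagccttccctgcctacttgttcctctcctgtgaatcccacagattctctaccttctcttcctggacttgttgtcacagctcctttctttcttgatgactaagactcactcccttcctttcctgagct
Casp4: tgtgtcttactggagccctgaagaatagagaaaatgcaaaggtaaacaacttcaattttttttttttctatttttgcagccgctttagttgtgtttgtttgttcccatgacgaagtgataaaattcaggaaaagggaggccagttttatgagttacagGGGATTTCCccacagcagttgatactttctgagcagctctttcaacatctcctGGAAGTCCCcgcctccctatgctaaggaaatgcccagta

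The motifs were searched on both strands over the 250 bases before each listed start, in 32851 windows. The carbohydrate response element is CACGNG and CNCGNG with 5 bases between. It began 85 bases before the start of Txnip and was found in 0.28% of all windows. The FOXO motif, GTAAACA, began 121 bases before it and was found in 3.17% of windows. It is also in the Casp4 window, at 209 bases, where it is not in capitals. The NF-kappaB motif, GGGANTTCC, began 92 and 39 bases before the start of Casp4 and was found in 1.43% of windows. The match at 92 bases is also a match to the stricter GGGATTTCC, found in 0.283%. The E box, CACGTG, stood 137 bases before Casp1 and was found in 6.02%, and CCAAT was found in the Txnip window at 137 and 102 bases and in 33.8% of all windows. None of these matches overlapped another, apart from both NF-kappaB spellings. The other 7 of 13 motifs searched had no match in the 3 windows and were found in 0.356% to 12.4% of all windows. They were GAAA and GAAA 2 bases apart, GAAAC and GAAA 1 base apart, TTCCNGGAA, TTCNNNGAA, GGGA and TTTCC 1 base apart, GAGGAAG and TATAAA. A longer spelling of the ETS motif, for PU.1, was also searched and is not shown. A match is a run of letters and says nothing of whether a factor binds there.

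The first question was whether macrophages without vimentin carry a different amount of inflammasome transcripts, in cultures with no named activator or priming agent. None of the 8 genes passed the threshold, a Benjamini-Hochberg adjusted limma p below 0.05 across the 13445 genes tested, which 3 genes (0.0223%) passed in the whole comparison. At an unadjusted limma p below 0.05 there was 1 of the 8, Nek7, where 7.97% of tested genes had such a p. Without vimentin-deficient replicate 3 there were 3 of the 8, Nlrp3, Nek7 and Txnip, where 14.2% of tested genes had one, and again 0 passed after adjustment. Gsdmd read higher on every vimentin-deficient array, Nek7 lower on every one, and the other 6 overlapped between the genotypes. Of the 8 genes 4 had higher and 4 lower means, where 39.6% of tested genes had a higher mean, and the median log2 fold change was 0.04, against -0.02 over all tested genes. The 95% interval of the log2 fold change stayed within 0.5 log2 units on either side of 0 for 7 of the 8 genes, as it did for 85.2% of all tested genes. In RNA from whole cultures, fewer cells that express a gene and less of its RNA per cell cannot be told apart.

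**Figure D1:**
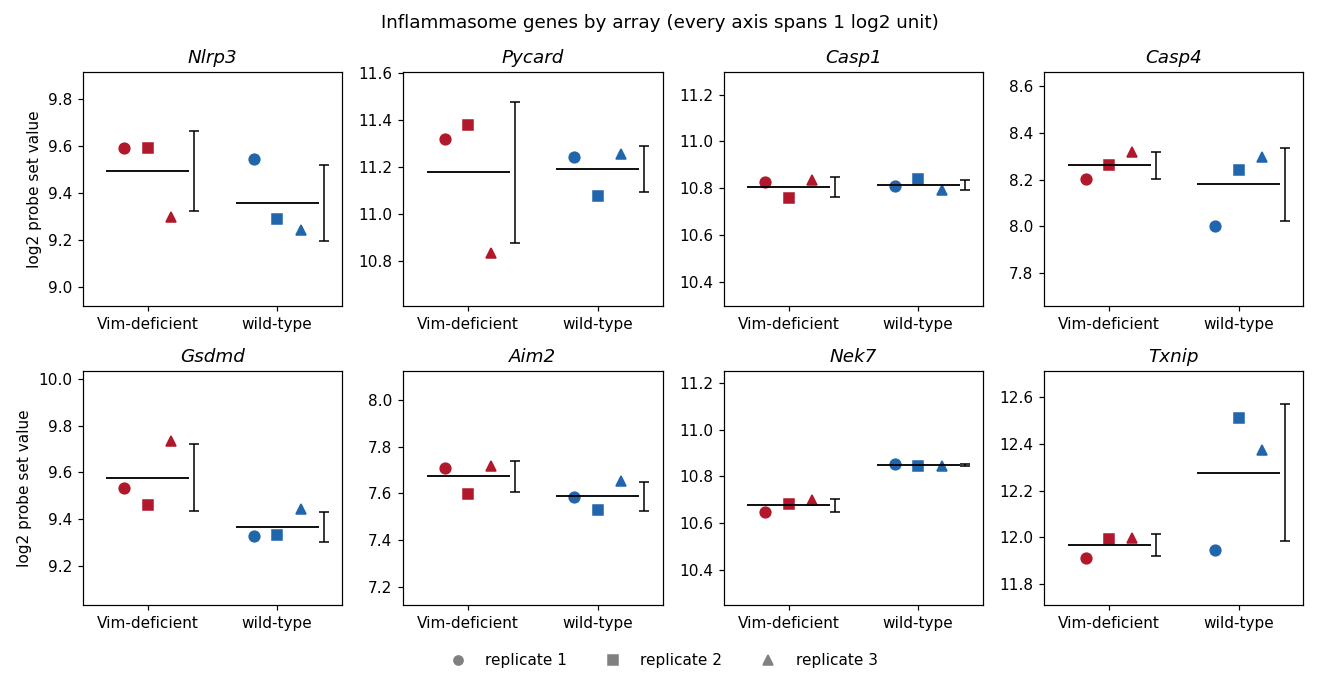
Log2 value of the brightest probe set of each of the 8 genes on each array, with the group mean (line) and the SD over 3 arrays (bar to the right). Every axis spans 1 log2 unit, so the panels compare in spread but not in level. Nek7 and Gsdmd show no overlap between genotypes, and for Txnip and Nlrp3 wild-type replicate 1 lies near vimentin-deficient replicates 1 and 2.

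Nlrp3 encodes the sensor that responds to crystals, to extracellular ATP and to potassium efflux. Its probe set read 9.59, 9.59 and 9.30 on vimentin-deficient replicates 1, 2 and 3, and 9.54, 9.29 and 9.24 on wild-type replicates 1, 2 and 3, in log2 units. The groups overlapped: wild-type replicate 1 lay with the higher vimentin-deficient arrays, and vimentin-deficient replicate 3 with the lower wild-type arrays. The mean was 9.49 ± 0.17 (SD, n = 3) against 9.36 ± 0.16 (SD, n = 3), a difference of 0.13 log2 units (SE 0.12, 95% interval -0.16 to 0.43, limma adjusted p = 0.818). Without vimentin-deficient replicate 3 the log2 fold change was 0.23 (SE 0.10, limma adjusted p = 0.319). It was also 0.23 without wild-type replicate 1 (limma adjusted p = 0.751), but 0.08 without wild-type replicate 3 (limma adjusted p = 0.984) and 0.08 without vimentin-deficient replicate 2 (limma adjusted p = 0.806).

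Aim2 encodes the sensor of double-stranded DNA in the cytosol and is known to be induced by interferon in mouse macrophages. It read 7.71, 7.60 and 7.72 on the vimentin-deficient arrays and 7.58, 7.53 and 7.65 on the wild-type arrays. Wild-type replicate 3 lay above vimentin-deficient replicate 2, so the groups overlapped. Aim2 had a log2 fold change of 0.09 (SE 0.06, 95% interval -0.05 to 0.22, limma adjusted p = 0.742) and 0.06 (SE 0.06) without vimentin-deficient replicate 3.

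Beside these values stand those of 24 interferon response genes, the tested ones of 27 listed, whose mean was higher on all vimentin-deficient arrays. The list was chosen with earlier results of these data known, so the counts below describe it and are no independent evidence. Averaged over these genes, the excess over wild-type was 0.91, 0.95 and 1.82 log2 units on replicates 1, 2 and 3, while single wild-type arrays lay from -0.12 to 0.10. The brightest of them were Rtp4, the antiviral membrane protein gene Bst2 and the RNA sensor gene Oas1a. By the same measure the 8 inflammasome genes had 0.01, 0.01 and -0.02 on vimentin-deficient replicates 1, 2 and 3, and from -0.04 to 0.03 across wild-type arrays. Deviations of opposite sign cancel in this mean. On vimentin-deficient replicate 3, Gsdmd had 0.37 and the brightest Pycard set -0.36. On vimentin-deficient replicate 1, Nlrp3 had 0.23 and the brightest Txnip set -0.36. With 6 arrays 0 of the 24 interferon genes passed the threshold (lowest limma adjusted p = 0.124), where 0.0223% of tested genes did. An unadjusted limma p below 0.05 was found for 23 of the 24, where 7.97% of tested genes had one. Without vimentin-deficient replicate 3, 21 of the 24 passed, all higher, where 1.31% of all tested genes passed and were higher. The difference between both groups of genes was not tested.

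Nek7 encodes a kinase of mitosis that also binds NLRP3 and is needed for its activation. Its brightest probe set read 10.65, 10.68 and 10.70 on vimentin-deficient replicates 1, 2 and 3 and 10.85, 10.85 and 10.85 on the wild-type arrays. All 3 vimentin-deficient arrays lay below all 3 wild-type arrays, as they did for 10.1% of tested genes. Between the means the log2 fold change was -0.17 (SE 0.07, 95% interval -0.33 to -0.01), a 1.13-fold difference. Its unadjusted limma p was 0.0404, the smallest of the 8 genes. The adjusted p was 0.605, and 0.297 without vimentin-deficient replicate 3, where the log2 fold change was -0.18 (SE 0.08).

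The 3 Nek7 probe sets differed in size and in sign. The second read 10.64, 10.59 and 10.62 on the vimentin-deficient arrays against 10.66, 10.75 and 10.69, again without overlap, with a log2 difference of -0.08 (SE 0.07). The third read 7.87, 7.87 and 8.08 against 7.93, 7.94 and 7.91, a log2 difference of 0.01 (SE 0.07). On that probe set vimentin-deficient replicate 3 was the highest of all arrays, and replicates 1 and 2 were below the wild-type arrays. Without vimentin-deficient replicate 3 the log2 differences of the 3 sets were -0.18, -0.08 and -0.06, all lower. With the mean of the 3 probe sets in place of the brightest one, the log2 fold change of Nek7 was -0.08.

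Txnip encodes the thioredoxin-interacting protein, an arrestin-like protein that limits glucose uptake and has been described as an activating partner of NLRP3 under oxidative stress. Its brightest probe set read 11.91, 11.99 and 12.00 on vimentin-deficient replicates 1, 2 and 3, and 11.95, 12.51 and 12.37 on wild-type replicates 1, 2 and 3. Wild-type replicates 2 and 3 were above every vimentin-deficient array, while wild-type replicate 1 lay among them. The mean was 11.97 ± 0.05 (SD, n = 3) against 12.28 ± 0.29 (SD, n = 3), a log2 difference of -0.31 (SE 0.14, 95% interval -0.65 to 0.03, limma adjusted p = 0.646). This was the largest difference of the 8 genes, 1.24-fold, and the only one whose interval reached beyond 0.5 log2 units.

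The second Txnip probe set split the arrays in the same way. It read 11.59, 11.71 and 11.74 against 11.67, 12.15 and 12.19, a log2 difference of -0.32 (SE 0.14). For Txnip the log2 fold change was -0.32 (SE 0.13, limma adjusted p = 0.303) with vimentin-deficient replicate 3 left out. It was -0.47 without wild-type replicate 1 (limma adjusted p = 0.36), and -0.19 without wild-type replicate 2 (limma adjusted p = 0.997). The SD among the wild-type arrays, 0.29, was close to the size of the difference.

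**Figure D2:**
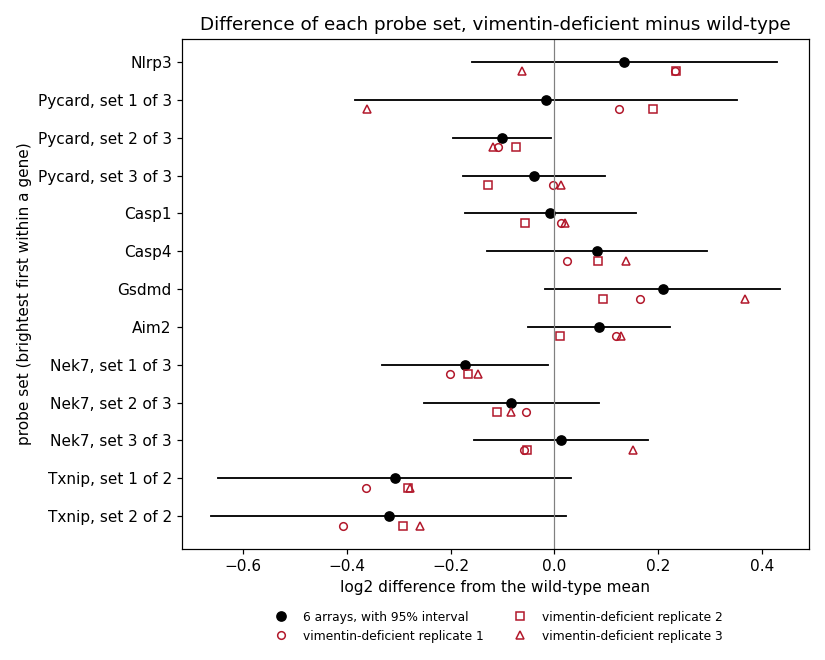
Log2 difference from the wild-type mean for all 13 probe sets, with the fitted difference and its 95% interval over 6 arrays (filled points, bars) and each vimentin-deficient array (open symbols). Both Txnip probe sets lie near -0.3, while the 3 sets of Pycard and of Nek7 differ among themselves, and vimentin-deficient replicate 3 lies apart from replicates 1 and 2 for the brightest Pycard set.

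Pycard encodes ASC, the adaptor shared by the NLRP3, AIM2 and pyrin inflammasomes. Its brightest probe set read 11.32, 11.38 and 10.83 on vimentin-deficient replicates 1, 2 and 3 and 11.24, 11.08 and 11.25 on the wild-type arrays. Vimentin-deficient replicates 1 and 2 were the highest of the 6 arrays and replicate 3 the lowest. The log2 fold change over 6 arrays was -0.02 (SE 0.15, 95% interval -0.38 to 0.35, limma adjusted p = 0.987). With that array left out it was 0.16 (SE 0.08, limma adjusted p = 0.448), with the opposite sign.

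The other two Pycard probe sets lay just above the filter value of 6.93, at means of 7.34 and 7.03. The first of these read 7.28, 7.31 and 7.27 on the vimentin-deficient arrays against 7.40, 7.38 and 7.37, lower without overlap, a log2 difference of -0.10 (SE 0.04, limma unadjusted p = 0.0398 and limma adjusted p = 0.667). The second had a log2 difference of -0.04 (SE 0.06). Without vimentin-deficient replicate 3 these sets had -0.09 and -0.07, opposite in sign to the 0.16 of the brightest set. Probe sets this close to background can compress a difference in RNA, so their size cannot be set against that of the brightest set.

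Casp1 and Casp4 encode the inflammatory caspases, one activated on ASC and the other by lipopolysaccharide in the cytosol. Casp1 read 10.83, 10.76 and 10.83 on the vimentin-deficient arrays and 10.81, 10.84 and 10.79 on the wild-type arrays. All 6 values lay within 0.081 log2 units, the narrowest range of the 13 probe sets. The log2 fold change of Casp1 was -0.01 (SE 0.07, limma adjusted p = 0.986), and its 95% interval of -0.17 to 0.16 corresponds to at most a 1.13-fold fall or a 1.12-fold rise. Its value without vimentin-deficient replicate 3 was -0.02.

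Casp4 read 8.20, 8.26 and 8.32 on the vimentin-deficient arrays and 8.002, 8.24 and 8.29 on the wild-type arrays. Only wild-type replicate 1 was below the vimentin-deficient arrays. The log2 fold change of Casp4 was 0.08 (SE 0.09, 95% interval -0.13 to 0.29, limma adjusted p = 0.852). It was 0.05 without vimentin-deficient replicate 3 and -0.01 without wild-type replicate 1. Its neighbour Casp1 showed no such dip on wild-type replicate 1. Casp4 is known to be induced by interferon and by lipopolysaccharide in mouse macrophages.

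Gsdmd encodes gasdermin D, the pore-forming protein of pyroptosis. It read 9.53, 9.46 and 9.74 on vimentin-deficient replicates 1, 2 and 3 and 9.33, 9.33 and 9.44 on the wild-type arrays. All vimentin-deficient arrays lay above all wild-type arrays, as they did for 5.32% of tested genes, but replicate 2 exceeded wild-type replicate 3 by little. The mean was 9.58 ± 0.14 (SD, n = 3) against 9.37 ± 0.06 (SD, n = 3), a difference of 0.21 log2 units (SE 0.09, 95% interval -0.02 to 0.43, limma adjusted p = 0.643). It was 0.13 without vimentin-deficient replicate 3, the array with the highest value (SE 0.08, limma adjusted p = 0.536).

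Vimentin-deficient replicate 3 stayed within 1 log2 unit of the other vimentin-deficient arrays for these genes. None of the 13 probe sets differed by over that much from their mean, as 2.75% of tested probe sets did. The largest difference was that of the brightest Pycard set, at -0.52, followed by Nlrp3 at -0.30 and Gsdmd at 0.24. It was the highest of all arrays for 4 of the 13 probe sets, those of Casp4, Gsdmd and Aim2 and the third of Nek7, where 25.9% of tested probe sets were highest on it. It was the lowest for 2, both of Pycard, where 32.5% were.

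Tested as separate probe sets, all 13 passed the filter on low values and 0 passed the threshold over 27022 probe sets, of which 0.0185% passed. Adjusted limma p ran from 0.665 to 0.989, and 2 of the 13 had an unadjusted p below 0.05, where 7.19% of tested probe sets did. Without vimentin-deficient replicate 3 there were 4 of 13, where 12.9% did. The groups did not overlap for 4 of the 13, 1 higher and 3 lower, where 5.92% of tested probe sets were higher and 8.91% lower in that way. These 4 come from 3 genes, and probe sets of 1 gene are not independent. In the fit without vimentin-deficient replicate 3, 0 of 13 passed as well, where 1.64% of probe sets did, and 0 of the 8 genes, where 2.34% of genes did.

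The genes around this core were taken as a list of 57 cytokines, further sensors, gasdermins, channels and regulators, of which 42 were tested. That list too was chosen with earlier results of these data known. With 6 arrays 0 of the 42 passed the threshold, where 0.0223% of tested genes did. An unadjusted limma p below 0.05 was found for 5 of the 42, where 7.97% of tested genes had one. Higher means were found for 25 and lower for 17, so 59.5% were higher, where 39.6% of tested genes were. The genotypes did not overlap for 5 of the 42, all higher, where 5.32% of tested genes were higher and 10.1% lower in that way. Without vimentin-deficient replicate 3 an unadjusted p below 0.05 was found for 9 of the 42, where 14.2% of tested genes had one. The median log2 fold change of the 42 genes over 6 arrays was 0.03, against -0.02 over all tested genes. Without vimentin-deficient replicate 3 it was 0.02, against -0.01. With vimentin-deficient replicate 3 left out, Zbp1 and Ripk3 rose and 0 fell, 2 of 42, where 1.31% of all tested genes rose and 1.03% fell.

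Zbp1 encodes a sensor of left-handed nucleic acid that triggers inflammasomes and necroptosis, and it is induced by interferon. It read 8.45, 8.66 and 9.62 on vimentin-deficient replicates 1, 2 and 3, and 7.66, 7.80 and 7.83 on the wild-type arrays. All vimentin-deficient arrays lay above all wild-type arrays, as they did for 5.32% of tested genes, with replicate 3 the highest. The log2 fold change was 1.15 (SE 0.28, limma adjusted p = 0.358), and without replicate 3 it was 0.79 (SE 0.08, limma adjusted p = 0.000546).

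Ripk3 encodes the kinase that ZBP1 engages in necroptosis, and was chosen for description after its value was seen. It read 8.37, 8.28 and 7.14 on the vimentin-deficient arrays and 7.99, 7.79 and 8.03 on the wild-type arrays. Vimentin-deficient replicates 1 and 2 were the highest of all arrays and replicate 3 the lowest. With 6 arrays the log2 fold change was -0.01 (SE 0.31, limma adjusted p = 0.996), and without replicate 3 it was 0.38 (SE 0.08, limma adjusted p = 0.0388).

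The genes with the smallest p besides Zbp1 included a pair of ATP-gated channels and a pair of genes induced by interferon. Gbp2, which encodes a guanylate-binding protein that opens bacterial vacuoles, read 8.29, 8.55 and 8.61 against 7.69, 8.14 and 7.97, without overlap, with a difference of 0.55 log2 units (SE 0.13, limma adjusted p = 0.352). Cgas, which encodes the DNA sensor upstream of STING, read 8.85, 8.79 and 8.79 against 8.73, 8.31 and 8.28, with a difference of 0.37 log2 units (SE 0.12, limma adjusted p = 0.536). For Cgas, wild-type replicate 1 lay near the vimentin-deficient arrays. With vimentin-deficient replicate 3 left out Gbp2 had 0.49 and Cgas 0.38, neither past the threshold (limma adjusted p = 0.0685 and 0.164).

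P2rx7 encodes the channel through which extracellular ATP drives potassium out of the cell and activates NLRP3, and P2rx4 a related channel. P2rx7 read 9.31, 9.32 and 9.45 on the vimentin-deficient arrays against 9.45, 9.72 and 9.70, a difference of -0.27 log2 units (SE 0.10, limma adjusted p = 0.591). P2rx4 read 10.90, 11.06 and 11.30 against 11.24, 11.54 and 11.68, a difference of -0.40 log2 units (SE 0.15, limma adjusted p = 0.581). In both, wild-type replicate 1 was the lowest wild-type array and lay below vimentin-deficient replicate 3. Without vimentin-deficient replicate 3 the log2 fold changes were -0.31 for P2rx7 and -0.50 for P2rx4 (limma adjusted p = 0.156 and 0.0587).

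Panx1, the ATP release channel gene, had a log2 fold change of 0.20 (SE 0.09) and Brcc3, which encodes a deubiquitinase of NLRP3, 0.17 (SE 0.07), or 0.17 and 0.14 without vimentin-deficient replicate 3, none past the threshold. The substrate cytokines did not pass either. Il18 read 8.84, 8.88 and 8.39 on the vimentin-deficient arrays and 8.95, 8.86 and 9.03 on the wild-type arrays, with replicate 3 lowest, and had -0.24 (SE 0.14, limma adjusted p = 0.707). Il1b read 7.45, 7.57 and 8.04 against 7.63, 7.64 and 7.51, with replicate 3 highest, and had 0.10 (SE 0.15). Without that array Il18 had -0.09 and Il1b -0.08. Ninj1, which encodes the protein that ruptures the membrane after gasdermin pores form, read 11.82, 11.83 and 12.75 against 11.88, 11.87 and 11.87, a difference of 0.26 (SE 0.24) that was -0.05 without replicate 3.

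**Figure D3:**
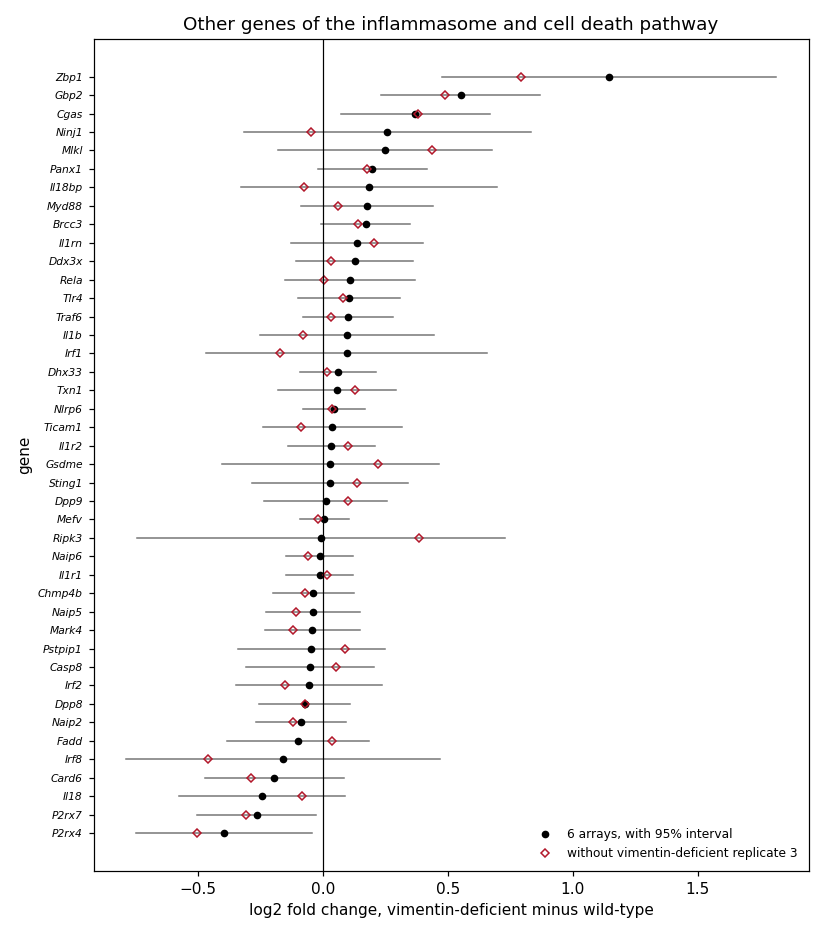
Log2 fold change of the 42 tested genes around the core inflammasome, vimentin-deficient minus wild-type, with 95% intervals over 6 arrays (filled points, bars) and the value without vimentin-deficient replicate 3 (open diamonds). Zbp1 has the highest value and P2rx4 the lowest, and Ripk3 moves from -0.01 to 0.38 when that array is left out.

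Mean levels of the marker lists of cells other than macrophages overlapped between the genotypes, apart from 2 lists on 1 array. The filter value of 6.93 lies below the array medians of 7.23 to 7.25, so passing it does not show that a marker is expressed. Counts are given out of all listed markers, some of which had no probe set of 1 gene symbol. With such a probe set were 7 neutrophil, 5 dendritic cell, 5 B cell, 5 T or NK cell, 4 mast cell or basophil and 3 erythroid markers. The neutrophil list, cells that also carry Nlrp3 and Gsdmd, had 4 of 8 markers above the filter, led by Elane and Mpo, and a mean log2 value of 7.09 to 7.21 on vimentin-deficient and 7.19 to 7.24 on wild-type arrays. Above the filter were 3 of 6 dendritic cell markers (Xcr1 and Flt3 brightest), 2 of 6 B cell markers (Ebf1, Pax5), 2 of 6 T or NK cell markers (Cd3e, Cd8a) and 0 of 5 for mast cells or basophils (Tpsb2, Cpa3). The ranges of these lists were 7.07 to 7.20 on vimentin-deficient and 7.12 to 7.23 on wild-type arrays for dendritic cells, 6.78 to 6.94 and 6.85 to 6.88 for B cells, 7.26 to 7.41 and 7.29 to 7.41 for T or NK cells, and 6.48 to 6.56 and 6.52 to 6.54 for mast cells or basophils. Of erythroid markers 2 of 5 (Hba-a1, Klf1) and of stromal markers 4 of 5 (Pdgfrb and Col1a1 brightest) were above it, with ranges of 7.12 to 7.27 and 7.23 to 7.24, and of 7.58 to 7.64 and 7.59 to 7.63. The megakaryocyte list had 3 of 4 markers above the filter and the osteoclast list 2 of 4. On vimentin-deficient replicate 3 the megakaryocyte list was low, at 7.31 against 7.92 to 8.11 on the rest, through Pf4, which macrophages also express (8.45 against 10.78 to 11.31), while Itga2b read 7.53. The osteoclast list was high there, at 7.38 against 6.93 to 7.02, through Ctsk (9.01 against 7.37 to 7.72), with Acp5 at 7.94. Their part in the values of Pycard, Gsdmd and Ninj1 on that array was not tested.

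Over the 6 arrays, the 3 genes most like Nlrp3 were Pdia4, an oxidoreductase gene of the endoplasmic reticulum (Pearson r 0.991), the chemokine gene Ccl4 (0.989) and the folate enzyme gene Shmt1 (0.988). Those most like Casp1 were Zbtb44 (0.978), 4930550C17Rik (0.974) and Slc36a4 (0.974). Of the 13445 tested genes, 19 and 20 had r over 0.95 with Nlrp3 and Casp1. With 6 points that share 2 genotypes, such values describe these arrays and carry no test.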

How the data were processed

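The series table holds log2 values per probe set as deposited by the authors, made by a summary and normalization not given in the sources used here. They ran from 5.43 to 14.50, with array medians of 7.23 to 7.25, and were used as deposited. A probe set took its gene from the platform annotation, with symbols updated by Entrez ID to GRCm38.p6, whose coordinates serve only for the RefSeq windows. Each gene was represented by the probe set with the highest mean, and genes with a mean at or above the 40th percentile of non-control probe sets, 6.93, were tested. This left 13445 of 18193 genes, or 27022 probe sets when tested singly.

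Genotypes were compared in limma 3.58.1 (R 4.3.3), with lmFit and a trended eBayes and without covariates, with Benjamini-Hochberg adjustment over all tested features and a threshold of 0.05. Standard errors and 95% intervals use the moderated variance. SDs are between arrays. The fit was tested on simulated data, the outcome of which is not given here and carries no result above.

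The gene members and lists were chosen with earlier results of these data known. The text names every member, Vim, the 8 other pathway genes with the smallest p, the brightest markers, the 3 brightest interferon genes and the genes most like Nlrp3 and Casp1. Cd14, Mertk, Fcgr1, Itgam, Il1b, Ninj1 and Ripk3, the motifs and the shown windows were chosen after their values were seen.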

Additional observations from a re-analysis of the deposited data

How the results depend on the processing

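The alternatives left out each array in turn, scaled the arrays by quantiles or by their medians, dropped or raised the filter, averaged the probe sets of a gene, removed the variance trend, weighted the arrays, added the replicate block or raised the threshold to 0.1. In all 15 of them 0 of the 8 genes passed, and in the 14 that apply to single probe sets 0 of 13 passed. Nlrp3, Gsdmd and Aim2 stayed higher and Nek7 and Txnip lower throughout. Over the 14 alternatives that refit them, log2 fold changes ran from 0.08 to 0.24 for Nlrp3, 0.13 to 0.27 for Gsdmd, 0.06 to 0.12 for Aim2, -0.18 to -0.08 for Nek7 and -0.47 to -0.19 for Txnip. The replicate numbers were not taken as pairs. Deviations of same-numbered arrays from their genotype means correlated at 0.497, -0.194 and 0.055. With 3 arrays per genotype and vimentin-deficient replicate 3 standing apart, these values cannot show whether the numbers mark pairs. The replicate block gave 0 called genes of 13445, and a log2 fold change of -0.17 for Nek7 (limma adjusted p = 0.63). The median log2 fold change of the 8 genes was 0.002 to 0.059 with 1 array left out, 0.002 being without wild-type replicate 1. Of the other pathway genes, 2 passed without vimentin-deficient replicate 3, Zbp1 and Ripk3, and 0 otherwise. Signs turned for the 3 genes nearest 0. Pycard had 0.16 without vimentin-deficient replicate 3, 0.01 without wild-type replicate 1, 0.02 without wild-type replicate 3 and 0.094 with array weights. Casp1 had 0.017 without vimentin-deficient replicate 2, 0.004 without wild-type replicate 2 and 0.0043 with quantile normalization. Casp4 had -0.0066 without wild-type replicate 1. With 1 array left out, Pycard ran from -0.12 to 0.16, Casp1 from -0.022 to 0.017 and Casp4 from -0.0066 to 0.14. With 0.226 the array weight of vimentin-deficient replicate 3 was low. The cause was not tested. Background cannot be separated from these values, so differences of dim probe sets can be compressed.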
